A study of Mus musculus with 10 samples.

Results

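Mucus in the mouse airway is made by goblet and other secretory cells, which become far more numerous in allergic airway inflammation. IL-13 and IL-4 act through STAT6 in the epithelium, and the transcription factor Spdef then turns on the goblet programme, whereas Foxa2 is known to hold it back. In CpG-rich promoters, a low level of DNA methylation is the usual state of genes that are, or can be, transcribed, while methylation inside gene bodies has no such fixed relation to transcription. The genes of this programme described here number 10: the secreted gel-forming mucins Muc5ac and Muc5b, the membrane mucin Muc1, the regulators Spdef, Foxa2 and Foxa3, the secreted protein Clca1, the endoplasmic reticulum protein Agr2 that assists mucin folding, the mucus protein Fcgbp and the trefoil peptide Tff2.

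The members were the windows overlapping the RefSeq span (GRCm38, the assembly also called mm10) of one of these 10 genes, extended by 5 kb on each side. They numbered 126 of the 446336 windows in the table, and 121 of the 421759 windows with at least 20 CpG calls in every mouse. A window is a stretch of 1000 bp, windows start every 500 bp, and neighbours therefore share 500 bp. Of the 121 windows, 6 held exactly the same calls as the window before, which leaves 115 distinct windows.

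Lung DNA came from 10 female BALB/c mice, 8 weeks old when the study began. Saline-treated mice (n = 3) received saline. OVA-induced mice (n = 3) were sensitised by injections of 50 µg ovalbumin with alum and challenged through the nose with 25 µg. DSE-treated mice (n = 4, labelled Herb) received the same ovalbumin regimen and 200 mg/kg of an extract of Descurainia sophia seeds by mouth, so that both groups carry the allergen exposure and the comparison of DSE with OVA sets mice with the extract against mice without it. Whole lung was used: airway secretory cells are a minority of its cells, and fewer cells of one type and less methylation per cell cannot be told apart in such DNA. Replicates are separate mice, 1 library each.

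The regions were captured with SureSelect Methyl-seq and treated with bisulfite, and methylation is given as the percentage of CpG calls in a window that were methylated. Each mouse had between 306656737 and 410836272 calls over all windows. A member window had between 29 and 7937 calls in a mouse, with a median of 640 against 450 over all windows tested. At 50% methylation, 640 calls give a Wilson 95% interval of 46.1 to 53.9%, and the 29 calls of the shallowest value, at 48.3%, give 31.4 to 65.6%; calls on 1 read are not independent, so these intervals cover counting error only.

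Coverage was uneven among the members. Foxa2 had 25 windows used, Foxa3 and Muc1 had 21 each, Spdef 18, Fcgbp 17, Agr2 9, Clca1 6 and Tff2 4. The capture left the airway gel-forming mucins almost unmeasured. Muc5b had 0 windows in the table, and Muc5ac had 2 in its body (exons 30 and 31), chr7:141805501-141806500 and chr7:141806001-141807000, which held the same calls and fell below the minimum with 14 to 49 calls a mouse. Those calls were 100% methylated in 6 of the 10 mice and lowest in DSE 3, at 62.2% of 45 calls (Wilson 95% interval 47.6 to 74.9%). The other 3 windows under the minimum, 2 of Foxa3 and 1 of Fcgbp, had as few as 15 calls in a mouse.

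Start sites were seldom covered as well. Only Foxa2, Foxa3 and Muc1 had a window centred within 1000 bp of the start of the transcript used, and for Clca1 a window lay 772 bp from the start of a second transcript. The nearest window was centred 2218 bp from the start of Tff2, 2575 bp from that of Agr2, 14764 bp from that of Fcgbp, and 1629 bp from the nearest of the 5 Spdef transcripts. For these members the data therefore describe gene bodies and flanks. Another annotated gene overlapped 36 of the 121 windows, among them 16 of the 21 around Muc1.

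The 3 promoters that the measured start-site windows contain, each shorter than its window, are shown as the sequence at these start sites. They run from 250 bases before to 50 after the start site, 5′ to 3′ on the strand of the gene, from RefSeq (GRCm38.p6), with each CpG in capitals. The Foxa2 promoter lies at chr2:148045415-148045714 (minus strand), the Foxa3 promoter at chr7:19023490-19023789 (minus strand) and the Muc1 promoter at chr3:89228806-89229105 (plus strand).
Foxa2: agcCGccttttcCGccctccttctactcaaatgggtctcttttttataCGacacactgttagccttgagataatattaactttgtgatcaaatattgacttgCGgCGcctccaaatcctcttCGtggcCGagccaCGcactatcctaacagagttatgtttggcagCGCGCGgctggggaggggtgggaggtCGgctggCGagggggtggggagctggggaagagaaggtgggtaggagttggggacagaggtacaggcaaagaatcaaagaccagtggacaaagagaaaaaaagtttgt
Foxa3: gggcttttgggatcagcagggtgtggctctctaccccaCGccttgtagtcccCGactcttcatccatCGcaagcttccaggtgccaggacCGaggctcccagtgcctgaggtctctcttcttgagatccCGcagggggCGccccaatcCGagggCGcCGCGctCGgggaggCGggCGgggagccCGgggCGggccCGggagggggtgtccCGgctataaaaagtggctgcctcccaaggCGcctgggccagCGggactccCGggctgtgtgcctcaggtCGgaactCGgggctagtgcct
Muc1: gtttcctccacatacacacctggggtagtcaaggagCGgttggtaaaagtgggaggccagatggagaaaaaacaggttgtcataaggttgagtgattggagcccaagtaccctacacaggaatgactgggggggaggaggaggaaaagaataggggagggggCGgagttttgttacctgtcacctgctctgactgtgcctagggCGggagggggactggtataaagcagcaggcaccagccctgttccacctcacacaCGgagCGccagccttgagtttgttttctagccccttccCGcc

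These promoters held 13, 22 and 6 CpGs, where the median of 32851 RefSeq promoters is 7 and the upper quartile 20. The promoters of Agr2, Fcgbp and Spdef held 7 CpGs each, and no window covered them. Entries were found for 6 of the 10 members, and the promoter set used held none for Muc5ac, Muc5b, Clca1 and Tff2. The STAT6 motif TTCNNNNGAA, which reads the same on both strands, occurred in 6.95% of all promoters, and the FOXA motif TGTTTAC, searched on both strands and unable to overlap the other in full, in 3.65%. Neither occurred in the 8 promoter entries of these 6 members, which says only that these letters are not in those 300 bases.

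CpG number and methylation went together differently from gene to gene. In saline-treated mice, 40 windows were under 20% methylated, 60 between 20 and 80%, and 21 above 80%. These shares of 33.1, 49.6 and 17.4% compare with 22.3, 55.3 and 22.4% over all windows tested. The median number of CpGs per window was 38 in the first class, 15 in the second and 20 in the third. Across the 121 windows, CpG number and saline level had a Spearman correlation of -0.31, as a description only, since overlapping windows share calls. Within genes it was -0.75 for Foxa2 (25 windows) and -0.43 for Foxa3 (21 windows), and above 0 for the other 6, from 0.024 for Muc1 (21 windows) to 0.85 for Clca1 (6 windows) and 1 for Tff2 (4 windows).

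The start-site windows of the transcripts used were little methylated. The window over the Foxa2 start, chr2:148045001-148046000, was methylated at 2.02% ± 0.529 in saline (SD, n = 3), 2.48% ± 0.378 in OVA (n = 3) and 2.6% ± 0.789 in DSE (n = 4). The Muc1 start window, chr3:89228501-89229500, had 3.55% ± 1.1, 3.19% ± 1.26 and 5.32% ± 1.34 in the same order. The Foxa3 start window, chr7:19023001-19024000, was higher, at 19.5% ± 1.89, 22.4% ± 1.31 and 23.5% ± 2.19. It reaches into the first intron, and the overlapping window on that side, chr7:19022501-19023500, had 28.3% in saline. The overlapping window on the upstream side, chr7:19023501-19024500, also holds the Foxa3 start and nearly all of the printed promoter. It had 4.28% in saline, so the level of the start window is not that of the promoter.

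None of the 14 windows within 1000 bp of a start site of its own gene passed the thresholds in a comparison. Most of the 14 were under 20% methylated in saline. Of all tested windows under 20%, only 2.57, 1.06 and 3.31% were called in OVA vs. saline, DSE vs. OVA and DSE vs. saline. A count of 0 in 14 is near those shares. In the Muc1 start window the mice of all 3 groups overlapped, from 2.18% in OVA 1 to 6.69% in DSE 3. In the Foxa3 start window the OVA-induced mice (21.1, 23.8 and 22.3%) lay just above the saline-treated mice (21.1, 17.4 and 19.9%). Its upstream neighbour, which contains the starts of both Foxa3 and Sympk, stayed at 4.28% ± 0.50, 3.81% ± 0.631 and 4.32% ± 0.383. The adjusted p of limma for the Foxa3 start window was 0.38 for OVA vs. saline and 0.18 for DSE vs. saline.

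**Figure D1:**
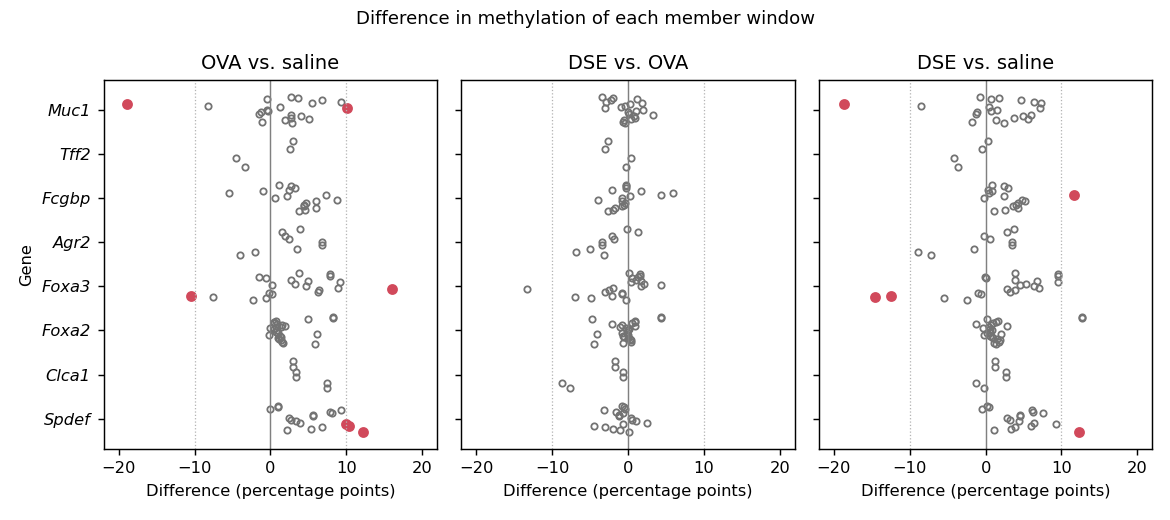
Difference in methylation, in percentage points of pooled calls, of each of the 121 windows (1 point each, grouped by gene, in genome order from bottom to top within a gene) in OVA vs. saline, DSE vs. OVA and DSE vs. saline; filled red points passed both thresholds and dotted lines mark 10 points either way. Most points lie right of 0 in both comparisons with saline, where 7 and 5 windows passed, and around 0 in DSE vs. OVA, where 0 passed.

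The first comparison, OVA vs. saline, asks what allergen exposure did to these genes. Methylation was higher in OVA-induced mice at 97 of the 121 windows and lower at 24. The median difference was 2.72 percentage points, against 0.727 over all windows tested, of which 61.0% were higher in OVA. Averaged over the members, methylation was 43.1% ± 0.847 in saline-treated and 45.9% ± 0.673 in OVA-induced mice. The 3 saline-treated mice had 43.9, 42.2 and 43.1%, and the 3 OVA-induced mice 45.1, 46.4 and 46.0%, so that these groups did not overlap. Over all windows tested the means were 51.2% ± 0.280 and 52.4% ± 0.479, a difference of 1.22 points against 2.76 for the members. There too the groups did not overlap, with 51.5, 50.9 and 51.2% in saline and 51.9, 52.6 and 52.8% in OVA, so the separation is not particular to the members.

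The higher median was present in each range of methylation. It was 1.44 points against 0.118 for all tested windows under 20% in saline, 3.72 against 2.18 for those between 20 and 80%, and 2.22 against 0.263 for those above 80%. In 37 member windows every OVA-induced mouse was above every saline-treated mouse, where 18.0% of all windows were so. Every OVA-induced mouse was below in 5, where 9.03% of all windows were. The 37 windows are 30.6% of the members and came from 7 genes, all measured ones but Tff2.

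Few of these differences were large. A likelihood ratio test on the pooled calls of a window, with Benjamini-Hochberg adjustment over all 421759 windows, called a window where the adjusted p was under 0.01 and the groups differed by 10 points or more. It called 5 member windows hyper methylated (4.13%, background 4.83%), in Spdef, Foxa3 and Muc1, and 2 hypo methylated (1.65%, background 2.60%), at Foxa3 and Muc1. This test leaves out the spread between mice. limma, which uses that spread, passed 2 member windows at an adjusted p under 0.05 (background 3.74%), and neither was among the 7. The members were thus called no more often than other windows.

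Markers of other cells moved in the same comparison. At start-site windows of 12 of 13 leukocyte genes, mean methylation was 45.2% ± 0.0535 in saline, 37.2% ± 2.69 in OVA and 37.2% ± 0.774 in DSE. The saline range of this mean, 45.1 to 45.2%, did not meet the OVA range of 34.9 to 40.2% or the DSE range of 36.5 to 37.9%. Of these genes, 7 were called hypo methylated in OVA vs. saline (Ptprc, Laptm5, Cd53, Spi1, Itgb2, Cd48 and Vav1), 1 hyper methylated (Coro1a), and 0 in DSE vs. OVA, while Lcp1 and Ikzf1 were at most 2.86% methylated in any mouse. At 4 of 5 eosinophil genes the mean was 56.9% ± 2.59, 51.6% ± 2.49 and 51.0% ± 3.18, with 0 called in OVA vs. saline. At 7 of 10 lung epithelial genes it was 29.5% ± 1.37, 30.3% ± 1.58 and 30.6% ± 1.73, with Krt8, an epithelial keratin, called hyper methylated. Of these 7 genes, 4 were lower and 3 higher in OVA than in saline, with a median difference of -0.330 points. At 4 of 5 liver genes, which lung should not use, the mean was 50.1% ± 2.19, 52.7% ± 1.88 and 51.4% ± 2.42, with 0 called. The part of a changed mixture of cells in the members' differences was not tested.

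The second comparison, DSE vs. OVA, asks what the extract did in exposed mice. Methylation was lower in DSE-treated mice at 77 member windows and higher at 44, with a median difference of -0.539 points against -0.0318 over all windows tested. The mean over the members was 45.0% ± 0.60 in the 4 DSE-treated mice (44.3, 45.0, 45.1 and 45.7%), a range that overlapped that of OVA-induced mice. The likelihood ratio test called 0 member windows hyper methylated (background 0.888%) and 0 hypo methylated (background 0.699%), and limma passed 0 (background 0.418%), with a smallest adjusted p of 0.19. At an unadjusted p under 0.05 there were 29 member windows by the likelihood ratio test, 9 by limma and 8 by an F test that scales for that spread. Of all 421759 windows tested, 41647 were under this limit by limma and 30989 by the F test. These are larger shares than those of the 121 member windows by the same tests. No background is given here for the likelihood ratio test at this limit. The mice did not overlap at 3 member windows with DSE higher (background 5.67%) and at 8 with DSE lower (background 4.59%), the latter in Spdef, Clca1, Foxa3 and Agr2.

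The third comparison, DSE vs. saline, shares the saline-treated mice with the first. Methylation was higher in DSE-treated mice at 94 windows and lower at 27, with a median of 1.63 points against 0.729 over all windows tested. The test on pooled calls gave 2 hyper methylated windows (background 5.02%), at Spdef and Fcgbp, and 3 hypo methylated ones (background 3.09%), 2 at Foxa3 and 1 at Muc1. limma passed 9 (7.44%, background 7.25%), of which 4 were at Foxa3, 2 at Foxa2, 2 at Muc1 and 1 at Agr2. Mice did not overlap at 28 windows with DSE higher (background 16.4%) and 7 with DSE lower (background 7.86%). In the same comparison 6 of the 12 leukocyte genes and the eosinophil gene Prg2 were called hypo methylated, Krt8 hyper methylated and 0 liver genes in either direction; their part in the members' differences was not tested.

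Across all 3 comparisons 9 different windows were called, and 3 of them were called in both comparisons with saline. With each mouse left out in turn, only the Muc1 window at chr3:89234001-89235000, in both comparisons with saline, and the Foxa3 window at chr7:19011001-19012000, in DSE vs. saline, were called every time. Each other call was lost without particular mice, which are named below.

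Foxa3, a liver and gut forkhead factor that can drive goblet differentiation when expressed in airway epithelium, had more windows past the threshold of either test than any other member. Its gene span (chr7:19013283-19023539, minus strand, 2 exons) was nearly unmethylated just upstream of the start, more methylated at the beginning of the first intron, less so further in, and highly methylated over the second exon. The 7 windows from the start into the first intron were each higher in OVA-induced than in saline-treated mice, by 0.172 to 16.1 points, and higher in DSE-treated mice by 2.80 to 9.57 points. In 5 of the 7 every OVA-induced mouse was above every saline-treated mouse, where 18.0% of all windows were so. In 5 every DSE-treated mouse was, where 16.4% of all windows were so. Neighbouring windows share calls and both counts use the same saline-treated mice, so they are not independent. The stretch was also chosen after its values were seen, so the counts are a description only.

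The best supported of these was chr7:19020001-19021000, centred 3038 bp into the gene. It was methylated at 5.56, 11.1 and 9.03% in the saline-treated mice, 18.1, 17.4 and 17.0% in the OVA-induced mice, and 13.6, 15.7, 14.3 and 18.2% in the DSE-treated mice. All exposed mice, with or without the extract, were above all saline-treated mice, and the OVA and DSE mice overlapped. limma gave 1.21 ± 0.25 (SE) on the log2 scale of methylated to unmethylated calls with an adjusted p of 0.035 for OVA vs. saline, and 0.99 ± 0.23 with an adjusted p of 0.035 for DSE vs. saline. It was not called by the other test, since the pooled difference was 8.98 points. The stretch of 200 bases of this window richest in CpGs, chr7:19020001-19020200 on the minus strand, is shown for its scattered CpGs, 5 here and 17 in the window, outside any dense cluster.
Foxa3 first intron: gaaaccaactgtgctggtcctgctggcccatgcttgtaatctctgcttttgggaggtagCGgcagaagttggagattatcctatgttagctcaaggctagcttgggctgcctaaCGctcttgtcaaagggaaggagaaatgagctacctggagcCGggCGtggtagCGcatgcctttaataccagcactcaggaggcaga

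Next to it, chr7:19020501-19021500 rose from 8.38% ± 0.718 in saline-treated to 14.7% ± 2.36 in DSE-treated mice, with a limma adjusted p of 0.019, and stood at 13.2% ± 1.39 in OVA-induced mice (adjusted p = 0.060 by limma against saline). Nearer the start, chr7:19022001-19023000 had 45.1, 43.6 and 45.4% in the saline-treated mice, 52.0, 53.2 and 57.4% in the OVA-induced mice, and 51.3, 55.7, 52.1 and 57.5% in the DSE-treated mice. Both exposed groups were entirely above saline, with limma adjusted p = 0.075 for OVA vs. saline and 0.049 for DSE vs. saline. The window with the largest difference, chr7:19019501-19020500, had 13.8, 24.6 and 24.1% in saline, 41.5, 34.4 and 35.0% in OVA and 27.6, 35.1, 10.9 and 20.3% in DSE. It was called at 16.1 points, but it had as few as 46 calls in a mouse, its limma adjusted p was 0.17, and the call was lost without OVA 1 (13.4 points) or without saline 1 (13.1 points).

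**Figure D2:**
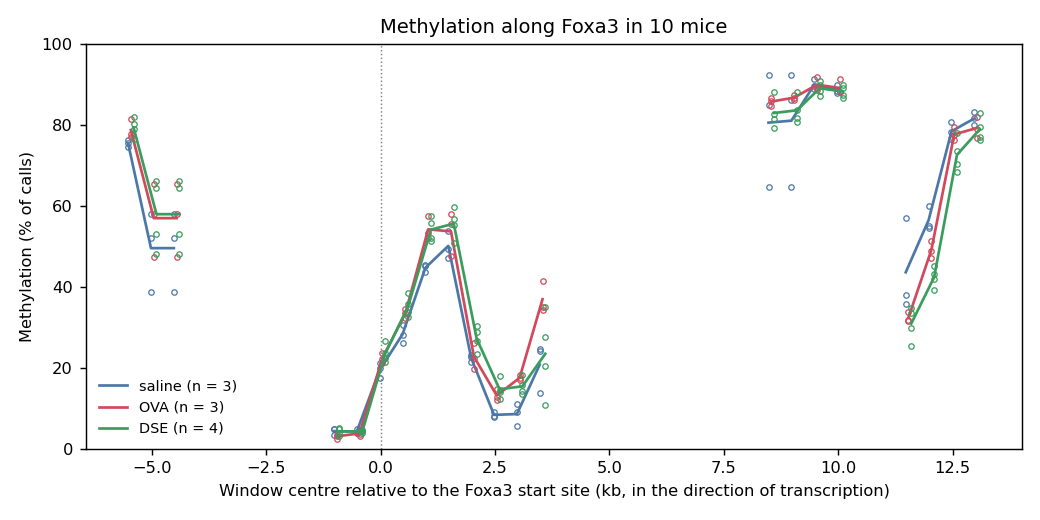
Methylation (% of calls, y axis) of the 21 Foxa3 windows against the distance of the window centre from the Foxa3 start site (x axis, kb, dotted line at 0); open circles are single mice and lines join group means over adjacent windows for saline (n = 3), OVA (n = 3) and DSE (n = 4). Levels are near 4% just upstream of the start, both exposed groups lie above saline in the first intron, and beyond the gene end saline lies above both.

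Past the end of Foxa3 the order was the opposite. The window at chr7:19011001-19012000, with no other annotated gene, was methylated at 59.9, 54.4 and 55.1% in saline, 48.9, 51.3 and 47.2% in OVA, and 39.2, 43.2, 45.2 and 41.9% in DSE. The 3 groups did not overlap with each other, with saline highest and DSE lowest. DSE vs. saline was called hypo methylated at -14.5 points, with a limma log2 difference of -0.82 ± 0.14 (SE) and an adjusted p of 0.015, the smallest of any member. The steps from saline to OVA (-7.51 points, limma adjusted p = 0.14) and from OVA to DSE (-7.01 points, limma adjusted p = 0.38) passed neither test. Its densest 200 bases, chr7:19011789-19011988 on the minus strand, hold 9 of its 17 CpGs and are shown as the sequence behind this graded difference.
Foxa3 downstream: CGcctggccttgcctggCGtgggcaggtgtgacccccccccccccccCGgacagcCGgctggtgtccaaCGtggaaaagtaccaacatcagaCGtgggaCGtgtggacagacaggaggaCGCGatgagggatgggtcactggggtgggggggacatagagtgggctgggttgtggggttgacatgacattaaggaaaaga

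The overlapping window chr7:19011501-19012500 was called in both comparisons with saline, at -10.5 and -12.5 points. Saline 1 stood at 57.0% there and the other saline-treated mice at 38.0 and 35.8%. Without saline 1 the differences were -4.60 and -6.65 points, and both calls were lost. The 2 upstream windows chr7:19027501-19028500 and chr7:19028001-19029000, which lie within Sympk and held the same calls, varied widely among mice, at 49.6% ± 9.77, 57.0% ± 9.04 and 58.0% ± 8.68.

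Spdef, the ETS factor at the head of the goblet programme, was higher in exposed mice along most of its length. The mean over its 18 windows was 46.8, 45.5 and 45.8% in saline, 51.5, 52.0 and 50.6% in OVA, and 50.2, 49.7, 50.1 and 51.8% in DSE. Both exposed groups were entirely above saline, by 5.28 and 4.42 points, and overlapped with each other. This was not particular to Spdef. Gene means of OVA-induced mice were also entirely above saline at Clca1, Foxa2, Foxa3, Agr2 and Fcgbp, and those of DSE-treated mice at Foxa2 and Fcgbp. Of the 18 windows 17 were higher in OVA than in saline, where 61.0% of all windows were. In 9 of them the mice did not overlap, where 18.0% of all windows were apart in this direction. Overlapping windows share calls, so these counts are not of independent windows. An exact permutation test of a single value cannot go below p = 0.1 for 3 mice against 3 or 0.0571 for 3 against 4, and no Spdef window passed limma.

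The called windows were in and beyond the body. At exon 4, chr17:27717501-27718500 had 56.2, 49.6 and 56.2% in saline, 70.2, 57.1 and 63.9% in OVA, and 58.6, 54.7, 57.6 and 67.9% in DSE. OVA-induced mice were all above saline-treated mice, by 10.4 points, while DSE-treated mice overlapped both groups. The next window, chr17:27718001-27719000, was called at 10.0 points. Without OVA 1 the differences of this pair were 6.12 and 5.64 points, without saline 2 they were 8.35 and 8.67 points, and both calls were lost each time; limma gave adjusted p = 0.21 and 0.23. The exon 4 stretch chr17:27717997-27718196 (minus strand) holds 8 of the 16 CpGs of the first of them.
Spdef exon 4: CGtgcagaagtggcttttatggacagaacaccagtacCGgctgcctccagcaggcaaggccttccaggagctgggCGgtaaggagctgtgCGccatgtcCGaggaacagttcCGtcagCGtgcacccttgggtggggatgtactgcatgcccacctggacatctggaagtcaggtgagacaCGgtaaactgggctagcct

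Upstream of Spdef, 3 overlapping windows centred 2997 to 3997 bp before the start were higher by 7.83 to 9.35 points in OVA than in saline. The OVA and saline mice were apart in all 3, as in 18.0% of all windows. DSE was higher than saline by 6.13 to 7.51 points, but the mice of these groups were apart in 0 of the 3, where 16.4% of all windows were. The nearest to the start, chr17:27733501-27734500, had 19.4, 26.2 and 14% in saline, 27.8, 26.8 and 28.9% in OVA, and 23.9, 28.7, 30.9 and 25.9% in DSE. Its difference stayed under 10 points and its limma adjusted p was 0.16. The further one, chr17:27734501-27735500, was lowest in all groups, at 3.43% ± 4.27, 13.3% ± 3.70 and 9.84% ± 4.44, on 48 to 87 calls a mouse. Just beyond it, at chr17:27735001-27736000, the DNA was about 80% methylated in every group, and OVA differed from saline by only -0.0896 points. The 3 windows were grouped after their values were seen, so their count is a description only.

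Downstream, at a window lying in Pacsin1 (chr17:27708501-27709500), levels were 6.62, 13.4 and 21.7% in saline, 25.8, 28.9 and 21.1% in OVA and 33.5, 24.3, 15.1 and 26.9% in DSE. The mice of the groups overlapped, and the calls at 12.2 and 12.3 points were lost without saline 1 (8.08 and 8.23 points), the second also without DSE 1 (8.83 points).

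**Figure D3:**
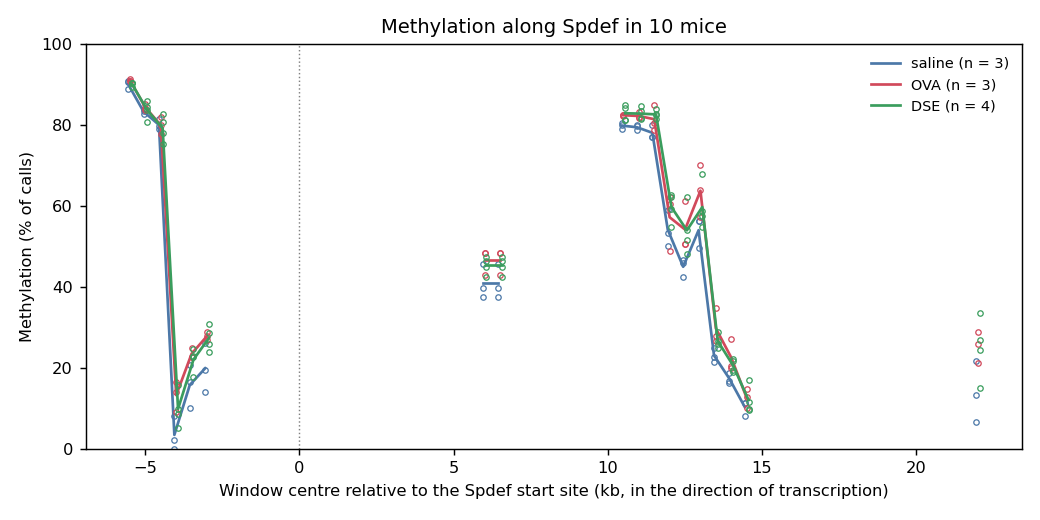
Methylation (% of calls, y axis) of the 18 Spdef windows against the distance of the window centre from the start of the transcript used (x axis, kb, dotted line at 0); open circles are single mice and lines join group means over adjacent windows for saline (n = 3), OVA (n = 3) and DSE (n = 4). The means of both exposed groups lie above saline along the body and at the low-methylated region upstream. There the 3 windows were 7.83 to 9.35 points higher in OVA than in saline, and single DSE-treated mice overlap saline-treated mice.

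Foxa2, the factor that restrains goblet differentiation, was the least methylated member. Of its 25 windows 20 were under 20% in saline and 17 under 10%, and the mean was 9.88% ± 1.33 in saline, 12% ± 0.786 in OVA and 11.8% ± 0.552 in DSE. None was called. Its differences were small but regular: 23 of the 25 windows were higher in OVA than in saline, where 61.0% of all windows were, with a median of 1.26 points.

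The Foxa2 windows that passed limma lay downstream of the gene in 9030622O22Rik. At chr2:148038501-148039500 methylation was 4.58, 3.96 and 3.84% in saline, 4.96, 6.20 and 5.61% in OVA, and 6.28, 5.68, 5.97 and 6.12% in DSE, on 4603 to 6559 calls a mouse. All exposed mice were above all saline-treated mice, and DSE vs. saline had a limma log2 difference of 0.57 ± 0.14 (SE) with an adjusted p of 0.035, though the pooled difference was only 1.90 points. The overlapping window chr2:148039001-148040000 rose by 1.48 points with a limma adjusted p of 0.044, and in OVA vs. saline the adjusted p of limma was 0.105 and 0.117. This is CpG-island DNA, as the 16 CpGs in the 200 bases chr2:148038527-148038726 (minus strand) show.
Foxa2 downstream: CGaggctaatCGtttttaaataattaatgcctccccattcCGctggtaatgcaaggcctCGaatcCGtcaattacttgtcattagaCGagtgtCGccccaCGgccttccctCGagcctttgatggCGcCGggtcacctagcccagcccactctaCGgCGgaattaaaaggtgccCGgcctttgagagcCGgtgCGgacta

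The far upstream edge of Foxa2 was the least certain. At chr2:148050001-148051000 the pooled difference of DSE vs. saline was 12.7 points, on 29 to 134 calls a mouse, and it was not called. The levels there were 31.2% ± 6.54, 39.7% ± 10.8 and 44.6% ± 7.85.

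Clca1, secreted by goblet cells and among the genes most strongly induced by IL-13 in mouse airways, had windows in which OVA-induced mice stood apart from both other groups. At its last exon, chr3:145004001-145005000, methylation was 47.0, 42.4 and 41.2% in saline, 50.3, 49.4 and 53.3% in OVA, and 42.5, 42.5, 44.5 and 43.9% in DSE, on 935 to 1508 calls a mouse. Every OVA-induced mouse was above every saline-treated and every DSE-treated mouse. The differences of 7.47 points (OVA vs. saline) and -7.65 points (DSE vs. OVA) stayed under the 10-point threshold, and limma gave adjusted p = 0.115 and 0.26. The overlapping window chr3:145004501-145005500 had identical levels in all saline-treated and OVA-induced mice, so it is not a separate measurement. Only its DSE levels differed, at 41.0, 41.4, 43.4 and 43.4%. It gave -8.73 points and an adjusted p of 0.19 by limma in DSE vs. OVA, the smallest of any member in that comparison.

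Windows in which the OVA-induced mice stood above both other groups numbered 3 among the members, these 2 of Clca1 and 1 of Agr2, or 2.48% against 1.85% of all windows. The 2 of Clca1 are not independent, since their saline and OVA levels are the same. The OVA-induced mice stood below both in 0 member windows, against 1.47% of all windows. The Clca1 stretch chr3:145004661-145004860 (minus strand) holds 5 of the 10 CpGs of the window and lies in the 500 bp that both windows share.
Clca1 exon 14: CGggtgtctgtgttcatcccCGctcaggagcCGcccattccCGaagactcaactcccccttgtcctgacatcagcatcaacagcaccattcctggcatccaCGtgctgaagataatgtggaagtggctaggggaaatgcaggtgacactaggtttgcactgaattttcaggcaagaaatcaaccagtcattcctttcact

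The other Clca1 windows moved less. In the body, around exon 5 and the start of the second transcript, methylation was 68.7% ± 2.39, 71.9% ± 0.582 and 71.3% ± 1.93. Around exon 3, at 4 CpGs a window, it was 25.8% ± 5.41, 28.4% ± 4.94 and 26.8% ± 3.97, with the groups overlapping.

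Agr2, needed for intestinal mucin production and induced with Muc5ac in allergic airways, was lower in DSE-treated mice near its 5′ end. At chr12:35995501-35996500, over exons 2 to 4, levels were 49.7, 45.2 and 43.7% in saline, 43.0, 46.6 and 41.7% in OVA, and 37.8, 37.7, 35.2 and 37.2% in DSE. The DSE-treated mice were below every other mouse. limma gave -0.55 ± 0.14 (SE) on the log2 scale with an adjusted p of 0.043 for DSE vs. saline and 0.33 for DSE vs. OVA, with pooled differences of -8.94 and -6.84 points. OVA and saline overlapped.

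The windows on either side of it differed in level. The window nearest the Agr2 start, chr12:35995001-35996000, had 59.4% ± 3.37, 55.0% ± 3.72 and 51.9% ± 1.79, with DSE below saline in every mouse. The next one, chr12:35996001-35997000, had 11.3% ± 2.39, 14.8% ± 2.91 and 9.71% ± 1.48, with DSE below OVA in every mouse. Further into the gene, at exon 7 (chr12:36001001-36002000), levels were 87.1% ± 2.17, 89.6% ± 0.371 and 87.8% ± 1.06, and all OVA-induced mice were above the others. The stretch with the most CpGs in the window of exons 2 to 4, chr12:35995805-35996004 on the plus strand, holds 4 of its 11 CpGs and reads as follows.
Agr2: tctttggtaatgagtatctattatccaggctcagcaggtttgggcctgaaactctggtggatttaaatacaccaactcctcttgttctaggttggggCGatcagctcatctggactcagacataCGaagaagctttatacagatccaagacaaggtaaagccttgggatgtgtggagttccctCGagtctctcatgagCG

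**Figure D4:**
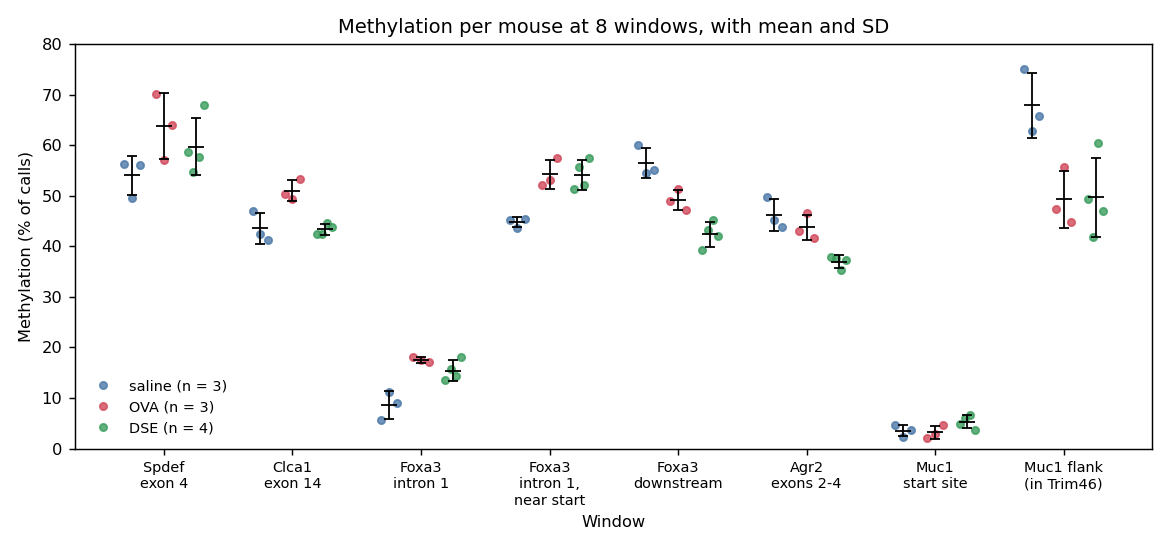
Methylation per mouse (% of calls, y axis) at 8 windows (x axis), with 1 point per mouse and black marks for the mean and SD of saline (n = 3), OVA (n = 3) and DSE (n = 4). OVA stands above both other groups at Clca1 exon 14, both exposed groups stand above saline in the Foxa3 first intron and below it in the Muc1 flank, and DSE is lowest at the Foxa3 downstream window and at Agr2.

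Muc1, the membrane mucin of epithelial cells, carried its largest difference outside its transcribed region. It sits between Thbs3 and Trim46, which overlapped 7 and 8 of its 21 windows. The largest difference of any member was at chr3:89234001-89235000, beyond the Muc1 end and within Trim46. There methylation was 75.1, 62.8 and 65.7% in saline, 47.4, 55.6 and 44.8% in OVA, and 49.3, 41.9, 60.3 and 47.1% in DSE.

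Every exposed mouse was below every saline-treated mouse there, and OVA and DSE overlapped. The window was called hypo methylated at -19.0 points in OVA vs. saline and -18.7 points in DSE vs. saline, and limma gave -1.13 ± 0.31 (SE, adjusted p = 0.070) and -1.10 ± 0.29 (adjusted p = 0.046) on the log2 scale. Leaving out each mouse in turn gave differences between -22 and -15.1 points and between -22.3 and -14.8 points. A window further into Trim46 the direction was the opposite: chr3:89235001-89236000 had 68.9, 70.8 and 71.8% in saline, 78, 82.9 and 78.1% in OVA, and 75.3, 79.4, 75.2 and 77.2% in DSE. All exposed mice were above all saline-treated mice, by 9.26 points in OVA, with a limma adjusted p of 0.048. Both stretches are on the plus strand, chr3:89234001-89234200 with 5 of 15 CpGs and chr3:89235072-89235271 with 14 of 36, and are shown because neighbouring DNA went opposite ways.
Muc1 flank, lower in exposed mice: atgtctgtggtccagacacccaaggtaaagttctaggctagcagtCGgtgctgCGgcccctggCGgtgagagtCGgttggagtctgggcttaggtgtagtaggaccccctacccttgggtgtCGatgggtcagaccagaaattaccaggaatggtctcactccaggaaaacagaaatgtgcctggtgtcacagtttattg
Muc1 flank, higher in exposed mice: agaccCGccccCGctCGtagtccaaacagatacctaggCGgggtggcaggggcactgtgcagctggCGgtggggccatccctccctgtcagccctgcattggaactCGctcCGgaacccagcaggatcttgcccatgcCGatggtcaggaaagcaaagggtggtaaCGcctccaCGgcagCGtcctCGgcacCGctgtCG

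Within Muc1 itself, a window at its last exon (chr3:89232501-89233500) was called hyper methylated in OVA vs. saline at 10.2 points, on 132 to 226 calls a mouse. It went from 50.3, 38.8 and 43.8% to 56.8, 53.2 and 52.0%, with 56.6, 50.3, 46.5 and 48.5% in DSE. The OVA and saline mice did not overlap, the limma adjusted p was 0.16, and the call was lost without OVA 1 (8.99 points), OVA 2 (10.5 points), saline 2 (7.38 points) or saline 3 (10.3 points). The overlapping window chr3:89233001-89234000, also at the last exon, had 557 to 761 calls a mouse. Its levels were 20.5% ± 1.90, 21.5% ± 4.47 and 20.7% ± 0.924, only 1.29 points higher in OVA than in saline, and the mice overlapped. Upstream, at the start of Mir92b (chr3:89226501-89227500), levels were 14, 13.9 and 12% in saline, 15.9, 15.9 and 16.2% in OVA, and 17.5, 23.9, 20.4 and 16.5% in DSE. The groups did not overlap and stood in the order saline, OVA, DSE, with a limma adjusted p of 0.0497 for DSE vs. saline and 0.58 for DSE vs. OVA. Between these places and the start, methylation declined to 2.61% ± 0.249, 2.28% ± 0.446 and 3.30% ± 0.591 in the window before the start window.

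**Figure D5:**
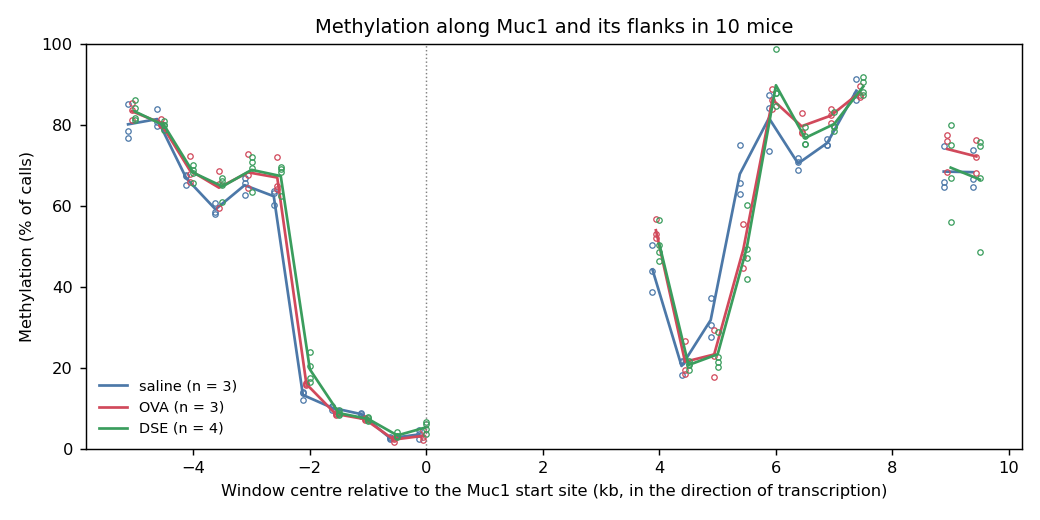
Methylation (% of calls, y axis) of the 21 Muc1 windows against the distance of the window centre from the Muc1 start site (x axis, kb, dotted line at 0); open circles are single mice and lines join group means over adjacent windows for saline (n = 3), OVA (n = 3) and DSE (n = 4). The groups overlap at the start site, and beyond the gene end the exposed groups lie below saline at the window with -19.0 points and above it at the window with 9.26 points.

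Fcgbp, a large mucus protein that binds other mucus proteins, was measured only in the body. The mean over its 17 windows was 57.2% ± 1.03 in saline, 60.4% ± 1.59 in OVA and 60.3% ± 1.09 in DSE. Of these, 15 windows were higher in OVA and 16 in DSE than in saline, where 61.0 and 61.7% of all windows were. A single window, chr7:28092001-28093000 at exon 7, was called in DSE vs. saline at 11.7 points. Saline 2 stood at 56.4% there and the other saline-treated mice at 78 and 84.6%, and without saline 2 the difference was 3.24 points and the call was lost. A block of 3 windows from chr7:28104001, at exons 13 and 14, was nearly unmethylated inside an otherwise methylated body, where Gm21925 is also annotated: the first had 4.98% ± 0.769 in saline, 8.42% ± 2.51 in OVA and 8.05% ± 1.77 in DSE. The saline and OVA mice overlapped there, at 4.13 to 5.62% and 5.61 to 10.5%. The window nearest the Fcgbp start, chr7:28085501-28086500 at exon 5, had 76.5% ± 2.26, 80.7% ± 3.22 and 78.3% ± 1.79.

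Tff2, the trefoil peptide that rises with Th2 inflammation, had 4 flanking windows and no clear difference. The upstream window chr17:31146001-31147000 was methylated at 82.8% ± 2.03 in saline, 85.4% ± 4.56 in OVA and 82.8% ± 5.07 in DSE. The 2 downstream windows were at 41.3% ± 5.52 and 42.3% ± 5.36 in saline and 37.5% ± 2.46 and 37.9% ± 3.12 in DSE. All groups overlapped at each of them.

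The wider mucus pathway was read at the start-site window of each gene and as all windows within 5 kb of the gene. Of 9 other mucins and trefoil factors, 2 had a start-site window. Muc13, a membrane mucin, had 83.4, 83.6 and 81.1% in saline, 72.9, 69.0 and 70.5% in OVA, and 74.4, 70.7, 70.4 and 68.6% in DSE. It was called hypo methylated against saline in both groups, at -11.8 and -11.4 points with limma adjusted p = 0.022 and 0.011, and all exposed mice were below all saline-treated mice. Muc2 was not called. In the 67 windows of this list, 1 was called hyper methylated in OVA vs. saline (1.49%, background 4.83%) and 8 hypo methylated (11.9%, background 2.60%).

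Of 10 genes of secretion and other goblet products, 8 had a start-site window and 0 were called in OVA vs. saline. In the 156 windows of this list, 4 were called hyper methylated in that comparison (2.56%, background 4.83%) and 0 hypo methylated (background 2.60%). Fut2, which fucosylates mucins, had 24.8, 22.6 and 27.7% in saline, 23.7, 32.2 and 36.8% in OVA, and 36.9, 41.2, 37.7 and 46.9% in DSE. Every DSE-treated mouse was above every other mouse, by 15.8 points over saline and 10.4 over OVA, and both were called, with limma adjusted p = 0.030 and 0.38. Xbp1 was not called but passed limma in DSE vs. saline (3.44 points, adjusted p = 0.011). Its means were 0.137, 0.461 and 3.61% in saline, OVA and DSE. Among 13 upstream signals and regulators, 12 had a start-site window, 11 of them under 20% methylated in saline, and 0 were called in any comparison. Their mean was 4.28% ± 0.244, 4.62% ± 0.150 and 4.89% ± 0.214. limma passed 1 of them in OVA vs. saline (background 3.74%), Sox2, at 0.961 points (adjusted p = 0.044). It passed 2 in DSE vs. saline (background 7.25%), Sox2 at 1.17 points (adjusted p = 0.018) and Klf5 at 1.84 points (adjusted p = 0.042). Il13 itself had no start-site window. In the 298 windows of the regulators, 7 were called hyper methylated in OVA vs. saline (2.35%, background 4.83%) and 7 hypo methylated (2.35%, background 2.60%).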

How the data were processed

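The authors captured lung DNA with SureSelect Methyl-seq, treated it with bisulfite, mapped paired reads to mm10 and deposited counts of CpG calls (total, methylated, unmethylated) per mouse in windows of 1000 bp at steps of 500 bp, without normalization. The submitters' processing notes name cutadapt 1.10, Bismark 0.19.0 and methylKit 1.0.0, which differ from the versions in the study's methods. The smallest deposited window had 10 calls in a mouse, and 20 were required here in each of the 10 mice. Calls add up both alleles and all cell types of the lung, and deeper windows give narrower intervals.

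Groups followed the sample titles. Herb was read as DSE. For each pair of groups, a logistic model of the pooled calls was tested by likelihood ratio (Python 3.11.15, scipy 1.17.1), with Benjamini-Hochberg adjustment over 421759 windows and calls at an adjusted p under 0.01 and 10 percentage points, the thresholds of the study. limma 3.58.1 (R 4.3.3) was fitted to M-values, log2 of methylated over unmethylated calls with a pseudocount of 1, with all 10 mice. Both were tested on simulated data. Differences are of pooled calls unless means are named, and mean ± SD are over mice. Gene spans, exons and start sites came from RefSeq on GRCm38.p6, with the longest curated transcript.

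Windows were named by rule: nearest to the start site, the largest call per gene and comparison, OVA apart from both other groups, or past limma. Other called windows, and neighbours of named ones, were chosen after their values were seen. The members and lists were chosen with earlier results of these data known. The study's own comparison tables were not used.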

Additional observations from a re-analysis of the deposited data

Results flagged for a closer look

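The mean over the 9 Agr2 windows was 65.0% in DSE 1 and between 64.2 and 64.3% in the other 3 DSE-treated mice, so that DSE 1 stood apart by a gap of 0.886 of the range of the group. It was the only value marked among 32 groups of 4 mice examined, and about 1 in 20 such groups is marked by chance. The whole range is under 1 percentage point, and the cause was not tested.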

How the results depend on the processing

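The direction of the member medians held under every alternative run, and each alternative moved a median by less than the spread between mice. In OVA vs. saline the counts of 5 hyper and 2 hypo methylated windows became 0 and 0 under the F test with a scale factor, limma with the 10-point limit (also with a pseudocount of 0.5), the replicate block and a limit of 20 points, and 1 and 1 among windows that do not overlap. Unweighted group means gave 2 hyper methylated windows, and gene spans without flanks gave 0 hypo methylated ones. In DSE vs. saline the 2 hyper and 3 hypo methylated windows became 0 and 0 under the F test, the replicate block and 20 points. There limma, with either pseudocount, gave 0 hyper methylated windows, windows that do not overlap gave 1, spans without flanks gave 1 and 0, and no minimum beyond the deposited windows gave 5 hypo methylated windows. Fewer windows are tested among non-overlapping ones and without flanks; otherwise the cause was not tested. In DSE vs. OVA these counts stayed at 0. The F test called 0 of all windows in each comparison.

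Leaving out 1 mouse gave 4 to 7 hyper and 1 to 3 hypo methylated windows in OVA vs. saline (median 1.89 to 2.88 points), 0 and 0 to 1 in DSE vs. OVA (median -1.06 without OVA 1 to -0.198 without DSE 1), and 2 to 5 and 2 to 5 in DSE vs. saline (median 1.56 to 2.16). The lowest hypo methylated count in OVA vs. saline, 1, came without saline 1, and in DSE vs. saline the hyper methylated count was 5 without DSE 2 and 4 without DSE 3, and the hypo methylated count 5 without saline 3. Among the named windows, 763 values kept their side of the threshold, 10 newly passed it and 32 no longer did. Mice of the same number did not deviate together, with correlations of -0.0273 to 0.0785 over 9 pairs of libraries, so the numbers do not pair the mice; with the replicate block limma passed 0 members in each comparison, in place of 2, 0 and 9, and 1, 13 and 2 of all windows in place of 15771, 1765 and 30597. Depth limits the windows under about 100 calls, such as the Foxa3 window with 46.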
